A study of Homo sapiens with 42 samples.

Results

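The transcripts described here are those whose level was lower after 24 h than after 8 h of culture with solvent alone, in both lymphoma lines of the study. They were chosen on the 12 libraries from cells given DMSO, the solvent of the compound. A row of the deposited tables qualified if its mean over those libraries was at least 2 CPM (reads scaled to the library's total, as deposited). It also had to change by -0.6 or less between the group medians of log2(CPM + 1), 24 h minus 8 h, in OCI-Ly3 and in TMD8. Of the 23250 rows, 11030 reached the level, 499 passed the change in OCI-Ly3 and 381 in TMD8, and 137 passed in both. Only 39 rows changed by 0.6 or more upward in both lines. The tables number their rows without naming genes, so the members are given by row number, and no symbol, function or sequence could be attached to them. MALT1 itself could therefore not be looked up in any library, and neither line could be checked against its markers.

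OCI-Ly3 and TMD8 are established human lines of ABC-DLBCL, the activated form of diffuse large B-cell lymphoma. In a first experiment each line received DMSO or compound 3, a covalent MALT1 inhibitor according to the series title and design, at 100 nM, and RNA was taken at 8 h or 24 h. In a second experiment each line was infected with a lentivirus for 1 of 3 hairpins, of which hairpin 1 and hairpin 2 targeted MALT1 and the remaining one was a non-targeting control, with no time given in the labels used here. Each of the 14 groups holds 3 libraries, numbered 1 to 3 as in the sample titles, 42 in all. The labels do not say that same-group libraries came from separate cultures, so p-values measure the spread between these libraries, which may be technical. Each line is a single line rather than a sample of patients, and the labels used here give no cell density or feeding schedule for the 24 h cultures.

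MALT1 is a scaffold and a protease that acts in a signalling complex downstream of antigen receptors. The complex activates NF-κB, and MALT1 also cleaves negative regulators of that pathway and proteins that destabilise mRNA. ABC-DLBCL cells keep this signalling switched on. A covalent inhibitor blocks the protease, whereas a hairpin lowers the mRNA and so the amount of the protein, scaffold included. How far the hairpins lowered MALT1 was not analysed here.

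The rows of a library summed to between 23.3 and 31.6 M reads in the compound experiment, and to between 15.8 and 19.4 M in the knockdown. A level of 1 CPM was worth 32.3 to 40.9 reads in the former and 20.5 to 24.5 in the latter. The members were mostly of modest level, with a median mean of 11.9 CPM and a range from 2.05 to 1961 CPM, against a median of 28.9 CPM over all rows at the level floor. Of the 137, 13 were at 100 CPM or more and 62 were under 10 CPM. In bulk RNA, fewer cells that make a transcript and less transcript per cell cannot be told apart.

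With DMSO the members fell by a median of 0.86 on the log2 scale in OCI-Ly3 and by 0.85 in TMD8, the change that selected them. The fall was 1 log2 unit or more in 43 members in OCI-Ly3, in 46 in TMD8 and in 21 in both. All 3 libraries at 8 h lay above all 3 at 24 h for 95 members in OCI-Ly3 and for 106 in TMD8, against 10.7% and 13.6% of the 12589 rows tested in this experiment. The opposite order, which the rule allows no member, held for 10.1% and 15.2% of those rows. These values are a description of the choice and carry no test. Just inside the limit were row 11283, with changes of -0.81 in OCI-Ly3 and -0.60 in TMD8, row 19612 with -0.60 and -1.11, and row 12504 with -0.60 and -0.65. Just outside it were row 3375 with -0.86 and -0.60, row 18004 with -0.60 and -1.29, and row 2960 with -0.60 and -0.60. A limit of -0.5 would have kept 229 rows, and a limit of -1 would have kept 21.

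Row 4302 had the largest fall in OCI-Ly3. Its level there was 63.1, 61.4 and 11.7 CPM in DMSO libraries 1, 2 and 3 at 8 h, and 4.21, 3.99 and 4.64 CPM at 24 h. In TMD8 it was 273, 42.3 and 70.8 CPM at 8 h and 22.5, 13.7 and 12.4 CPM at 24 h. The 24 h libraries lay close together in each line, whereas the 8 h libraries differed several-fold among themselves, and the times did not overlap. Row 9068 had the largest fall in TMD8. It went from 125, 87.4 and 72.0 CPM to 18.5, 13.5 and 11.9 CPM there, and from 119, 78.7 and 126 CPM to 45.4, 54.6 and 49.3 CPM in OCI-Ly3, again with no overlap. The most abundant member, row 3058, changed by only -0.62 in each line. It stood at 2776, 2032 and 1710 CPM at 8 h and 1888, 1324 and 1265 CPM at 24 h in OCI-Ly3, and at 3425, 2155 and 2321 against 1743, 1385 and 1510 CPM in TMD8. Its times overlapped in OCI-Ly3 and not in TMD8.

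Summed over the 137 members, the DMSO level fell from 8254 ± 1579 CPM at 8 h to 4762 ± 397 CPM at 24 h in OCI-Ly3 (SD, n = 3 each). In TMD8 it fell from 9034 ± 1796 to 4809 ± 402 CPM (SD, n = 3 each). The wide spread at 8 h came largely from library 1, which reached 10063 CPM in OCI-Ly3 and 11034 CPM in TMD8 against 7152 to 8509 CPM in the other 8 h DMSO libraries. The compound libraries numbered 1 at 8 h were high as well, at 9422 and 11336 CPM. Library 1 was the highest of the 3 at 8 h for 97 members with DMSO and 90 with compound in OCI-Ly3, and for 76 and 85 in TMD8. The DMSO counts come from libraries that chose the members, and the same counts over all rows were not made. Over all rows tested, the deviations of same-numbered DMSO and compound libraries from their group means correlated at 0.715 to 0.808 in OCI-Ly3 and 0.75 to 0.921 in TMD8 at 8 h. The part of this shared deviation in the fall was not tested, and 73 of the 137 rows still qualified when both DMSO 8 h libraries numbered 1 were left out (88 rows in all). Leaving out OCI-Ly3 DMSO 8 h library 1 alone gave 88 rows, of which 83 were among the 137.

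**Figure D1:**
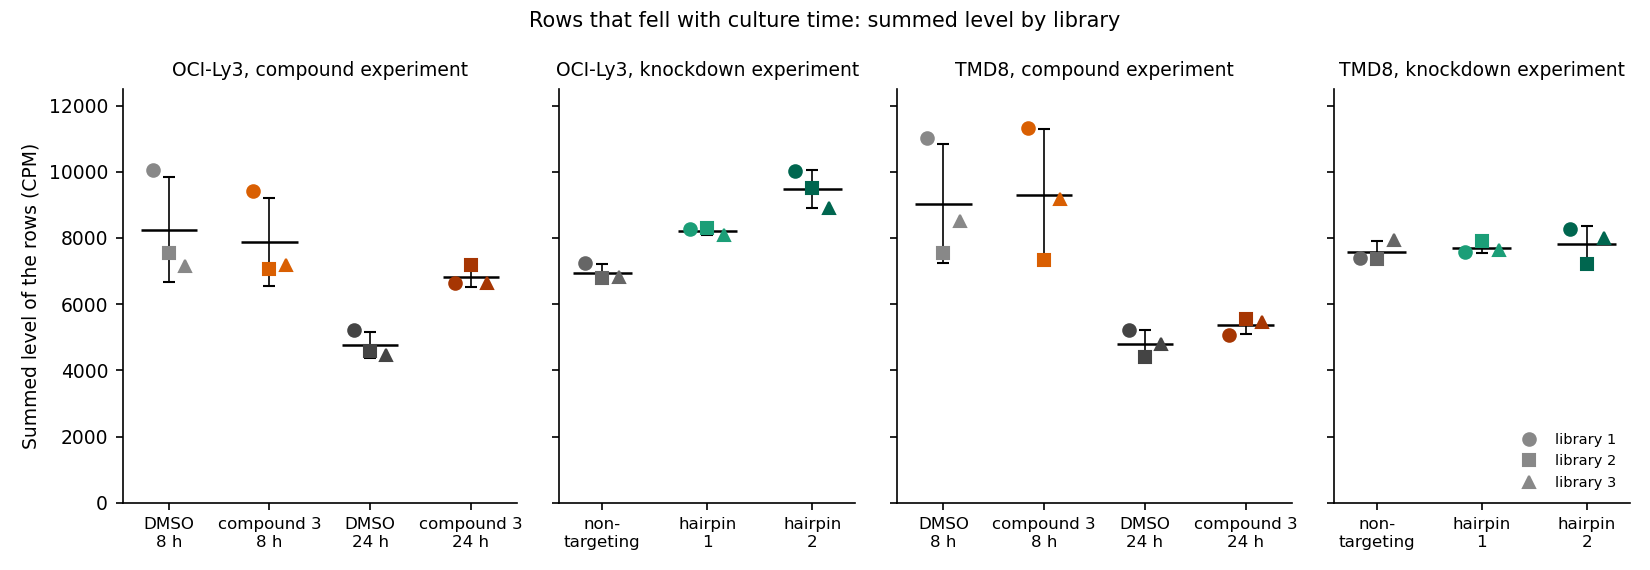
Summed level of the 137 rows in CPM (y axis) in every library, by group (x axis), with points for libraries 1 to 3 and bars for the mean and SD of 3. With DMSO the sum fell to 4762 CPM (OCI-Ly3) and 4809 CPM (TMD8) at 24 h; with compound 3 at 24 h it stood at 6823 CPM in OCI-Ly3 and at 5360 CPM in TMD8.

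Cells given compound 3 were not used to choose the members, so the change from 8 h to 24 h could be tested in them with limma on log2(CPM + 1). A member is said to be called where the Benjamini-Hochberg adjusted p over all 12589 rows tested was under 0.05, two-sided. Same-numbered DMSO and compound libraries deviated together, as given above, so these libraries were not a fully separate sample of the 8 h state. How much of the agreement in time change rested on this was not tested.

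In TMD8 most members were lower at 24 h than at 8 h under compound too. The median change was -0.83, against 0.03 over all rows tested, and 136 of the 137 members had a fitted change below 0. The test called 51 members lower, against 3.03% of all rows tested, and 1 higher, against 3.42%. Of the 51, 34 fell at least 2-fold, and the called falls ran from -0.64 to -2.55. All 3 compound libraries at 8 h lay above all 3 at 24 h for 105 members, against 12.9% of all rows, and below them for 1, against 15.3%. The number of calls depended on single libraries: it was 20 lower without compound 8 h library 1, and 25, 32 and 22 lower without the 24 h libraries 1, 2 and 3. Without both TMD8 8 h libraries numbered 1 it was 27.

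In OCI-Ly3 fewer members passed the test. The median change was -0.34 against -0.02 over all rows, 28 members had a change above 0, against 45.8% of all rows, and 54 had an unadjusted p under 0.05, against 14.8% of all rows. All 3 libraries at 8 h lay above all 3 at 24 h for 42 members and below them for 6, against 14.5% and 10.7% of all rows. The test called 8 members lower, against 1.12% of all rows tested, and 1 higher, against 0.357%. Without all 8 h libraries numbered 1, which is an alternative added after seeing the data, there were 7 lower calls in OCI-Ly3 and 36 in TMD8. The OCI-Ly3 count moved further with single libraries, to 4 lower without 8 h library 1, to 4 lower without 24 h library 1, and to 16 lower and 3 higher without 8 h library 3.

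Of the 8 members called lower in OCI-Ly3, 6 were also called lower in TMD8, which is 75% of the OCI-Ly3 calls and 11.8% of the TMD8 calls. They were rows 313, 4433, 8675, 9063, 14226 and 17177. Of all 137 members, 37.2% were called lower in TMD8. The same overlap over all rows tested was not counted. Both tests used 1 estimate of the spread per row from the same fit, so the calls of the lines were not independent. Row 313 stood at 9.41, 3.94 and 11 CPM at 8 h and 0.928, 1.93 and 0.782 CPM at 24 h under compound in OCI-Ly3. In TMD8 it went from 37.2, 37.0 and 35.4 CPM to 7.75, 11.2 and 8.72 CPM. The times did not overlap in either line, and the fall was -1.98 (SE 0.29, adjusted p = 0.00131) in OCI-Ly3 and -1.89 (SE 0.29, adjusted p = 0.000932) in TMD8. Row 17177 fell from 106, 109 and 87.3 CPM to 43.2, 47.9 and 45.2 CPM in OCI-Ly3, and from 31.7, 23.6 and 20.6 CPM to 11.5, 9.03 and 13.2 CPM in TMD8. Those groups did not overlap either, with changes of -1.13 (adjusted p = 0.00245) and -1.09 (adjusted p = 0.00196). Row 9063 had the largest fall of the 6 in TMD8, -2.06 (adjusted p = 0.00638). It lost that call without TMD8 8 h library 1 (-1.75, adjusted p = 0.0552), and its OCI-Ly3 call of -1.84 (adjusted p = 0.0272) was lost without any single one of 5 libraries, down to -1.42 (adjusted p = 0.216) without 8 h library 1. The OCI-Ly3 call of row 8675 (-0.70) was lost without any single one of 4 libraries, 8 h library 1 or 2 and 24 h library 1 or 3 (adjusted p = 0.0573 to 0.217). Row 14226 (-1.26 in OCI-Ly3 and -1.09 in TMD8) lost its OCI-Ly3 call without 8 h library 1 or any 24 h library (adjusted p = 0.055 to 0.135), and its TMD8 call without 8 h library 1 or 24 h library 1 or 3 (adjusted p = 0.0639 to 0.126).

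Row 4302, with the largest fall under DMSO, repeated its library pattern under compound. The 8 h values were 63.8, 59.8 and 13.7 CPM in OCI-Ly3 and 275, 38.6 and 82.1 CPM in TMD8, close to the DMSO values of the same numbers. At 24 h it stood at 5.65, 4.6 and 4.8 CPM and at 16.2, 17.5 and 13.7 CPM. The times did not overlap, yet the fall of -2.69 in OCI-Ly3 missed the threshold (adjusted p = 0.0558). The fall of -2.53 in TMD8 passed it (adjusted p = 0.0352) and became -1.78 (adjusted p = 0.235) without compound 8 h library 1; it was also lost without 8 h library 3 (-2.64, adjusted p = 0.0566) and without any one 24 h library.

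A single member was called higher at 24 h under compound, row 13018, and it was called in both lines. With DMSO it stood at 3.32, 3.55 and 3.79 CPM at 8 h and 3.22, 1.67 and 0.662 CPM at 24 h in OCI-Ly3. Under compound it measured 0.141, 0.311 and 1.95 CPM at 8 h and 4.43, 10.7 and 45.4 CPM at 24 h in OCI-Ly3, and 0.752, 0.576 and 0.168 CPM against 25.4, 17.3 and 6.82 CPM in TMD8. The times did not overlap, and the rise was 3.13 (adjusted p = 0.0110) in OCI-Ly3 and 3.40 (adjusted p = 0.00349) in TMD8. The OCI-Ly3 call was lost without 8 h library 1 (2.87, adjusted p = 0.0869) and without 24 h library 3 (2.28, adjusted p = 0.0797). Row 13018 had no reads in any of the 18 knockdown libraries.

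**Figure D2:**
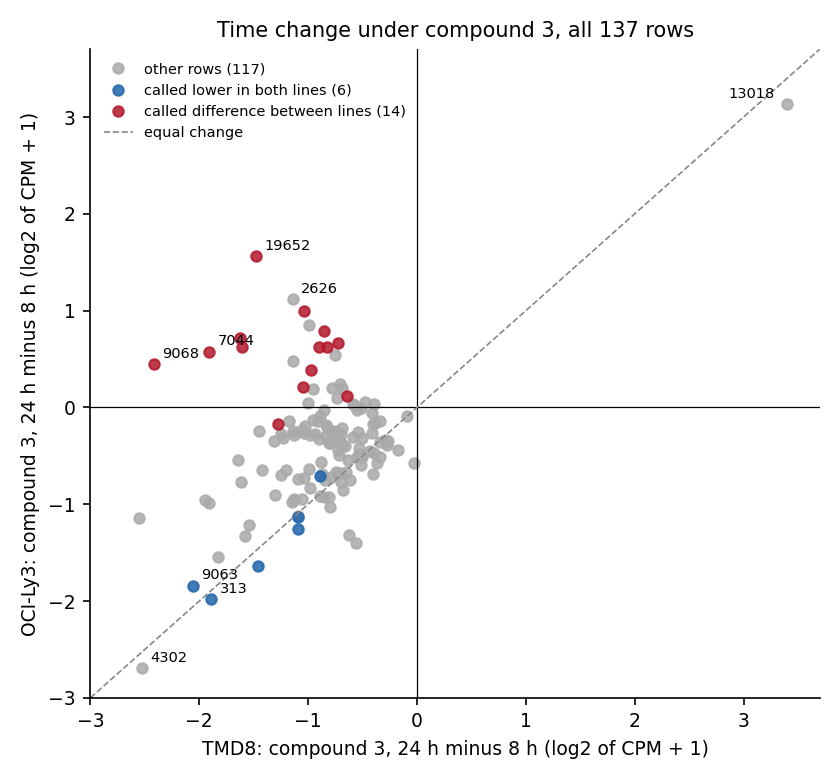
Change from 8 h to 24 h under compound 3 for each of the 137 rows, TMD8 on the x axis and OCI-Ly3 on the y axis, both as fitted differences of log2(CPM + 1). In TMD8 all but row 13018 lie below 0; the 6 rows called lower in both lines lie near the line of equal change, and the 14 rows with a called difference between lines lie above it.

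The lines differed in this time change. By the test of the difference itself, the change under compound was called higher in OCI-Ly3 for 14 members and lower for 0. Over all rows tested, 0.715% were called in the first direction and 0.874% in the second. Over the members the median difference was 0.35, against -0.06 over all rows. By direction the count was 6 without OCI-Ly3 24 h library 2, 8 without OCI-Ly3 24 h library 3 or without TMD8 24 h library 1 or 3, and 9 without TMD8 8 h library 3, always with 0 in the other direction. The difference was also counted in the lists chosen in 1 line. Of the 381 rows that passed the limit in TMD8, members included, 51 were called higher and 0 lower, with a median of 0.51. Of the 499 rows that passed it in OCI-Ly3, 15 were called higher and 21 lower, with a median of -0.08. Each list was chosen for a fall with DMSO in that line, which leans this difference up for the 381 and down for the 499. These counts therefore cannot show how far the difference between lines reached beyond the members.

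Row 19652 had the largest difference. Under compound it stood at 0.451, 1.68 and 5.22 CPM at 8 h and 4.14, 9.46 and 10.6 CPM at 24 h in OCI-Ly3. In TMD8 it stood at 14.5, 14 and 23.6 CPM at 8 h and 6.85, 4.24 and 5.44 CPM at 24 h. The OCI-Ly3 times overlapped, since 8 h library 3 exceeded 24 h library 1, and the TMD8 times did not. Neither change was called on its own (1.56 with adjusted p = 0.0876 and -1.48 with adjusted p = 0.0528), whereas their difference of 3.04 (SE 0.64, adjusted p = 0.0169) was. The difference was lost without OCI-Ly3 24 h library 2 (2.89, adjusted p = 0.0542) or library 3 (2.82, adjusted p = 0.0516).

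Row 9068 differed through its fall in TMD8. In OCI-Ly3 under compound it was 81.5, 38.1 and 66.6 CPM at 8 h and 72.2, 86.0 and 85.1 CPM at 24 h, with overlapping times and a change of 0.44 that was not called (adjusted p = 0.425). In TMD8 it fell from 123, 84.9 and 76.3 CPM to 16.6, 18.8 and 14.3 CPM, a change of -2.42 (SE 0.25, adjusted p = 2.26e-05). The difference between lines was 2.86 (SE 0.35, adjusted p = 0.00048). Row 7044 was low in OCI-Ly3, at 0.733, 0.985 and 2.31 CPM at 8 h and 1.54, 2.79 and 2.92 CPM at 24 h, overlapping. It fell in TMD8 from 10.8, 5.56 and 14.3 CPM to 2.05, 1.59 and 1.85 CPM, with no overlap. Its difference was 2.48 (SE 0.48, adjusted p = 0.0110), and it was 2.22 (adjusted p = 0.0578) without all 8 h libraries numbered 1.

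Set against DMSO at the same time, the members differed little at 8 h, with row 13018 as the widest exception. The median difference between group medians, compound minus DMSO, was -0.03 in OCI-Ly3 and 0.02 in TMD8, and row 13018 lay at -1.79 and -1.68. At 24 h it was 0.43 in OCI-Ly3, where 123 of the 137 members were above DMSO and 24 by 1 log2 unit or more, and 0.12 in TMD8, where 95 were above and 1 by that much. The same DMSO libraries chose the members as low at 24 h, so these differences are described and not tested. The highest in OCI-Ly3 were row 2626 (2.76), row 19652 (2.73) and row 16882 (2.31). Row 2626 stood at 9.25, 19.5 and 19.2 CPM with DMSO and 108, 136 and 236 CPM with compound at 24 h in OCI-Ly3, and at 67.3, 47.7 and 77.7 against 94.9, 79.5 and 111 CPM in TMD8. The groups did not overlap in either line, and they lay further apart in OCI-Ly3. The lowest in both lines was row 21039 (-0.57 in OCI-Ly3 and -0.55 in TMD8), and 3 pairs of members, row 21039 and row 21040 among them, had adjacent row numbers.

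Lists for which the limit was applied in 1 line were tested in the other. The level floor was a mean over the DMSO libraries of both lines, so this choice used the compared DMSO libraries for their level and not for their time change. The 381 rows that passed the limit in TMD8, the 137 members among them, were tested for compound minus DMSO in OCI-Ly3. At 24 h, 23 of the 381 were called higher and 0 lower, against 0.651% and 0.119% of all rows tested. Of the 23, 17 were among the 137 members, which were chosen as low in the same DMSO 24 h libraries, and 6 were among the other 244 rows. The median was 0.27 against 0.00, and 319 of the 381 were above 0. With the level floor taken over the TMD8 DMSO libraries alone, an alternative added after seeing the data, 23 of 404 rows were called higher and 0 lower. At these groups same-numbered libraries deviated together (correlations of 0.504, 0.378 and 0.599), and with the replicate number as a block the calls were 63 higher and 2 lower. Single libraries moved the count, to 10 and 15 higher without DMSO 24 h library 1 or 3 and to 6 and 13 higher without compound 24 h library 2 or 3. Without all 8 h libraries numbered 1, 41 were called higher. At 8 h limma called 0 of the 381, with 14 at an unadjusted p under 0.05 (3.67%, against 1.29% of all rows), 0 by edgeR and 1 by DESeq2. Over all rows limma called 0.0397% lower and 0.0% higher there. Same-numbered libraries deviated together at 8 h as well (correlations of 0.75, 0.715 and 0.808), and the limma fit did not pair them. The 0 calls at 8 h therefore do not show that no row changed.

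The mirror comparison gave no calls. Of the 499 rows that passed the limit in OCI-Ly3, limma called 0 in TMD8 at 8 h and 0 at 24 h, as for all rows tested (0.0% in each direction). At an unadjusted p under 0.05 there were 10 and 2 (2.0% and 0.401%, against 1.04% and 0.731% of all rows), and edgeR and DESeq2 called 0 at both times. The median of the 499 at 24 h was 0.01. The difference between the lines in this effect was not tested on these lists. Same-numbered DMSO and compound libraries of TMD8 deviated together at 8 h (correlations of 0.921, 0.75 and 0.755), and the limma fit did not pair them. An unpaired fit can miss changes there, so the 0 calls at 8 h do not show that no row changed.

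**Figure D3:**
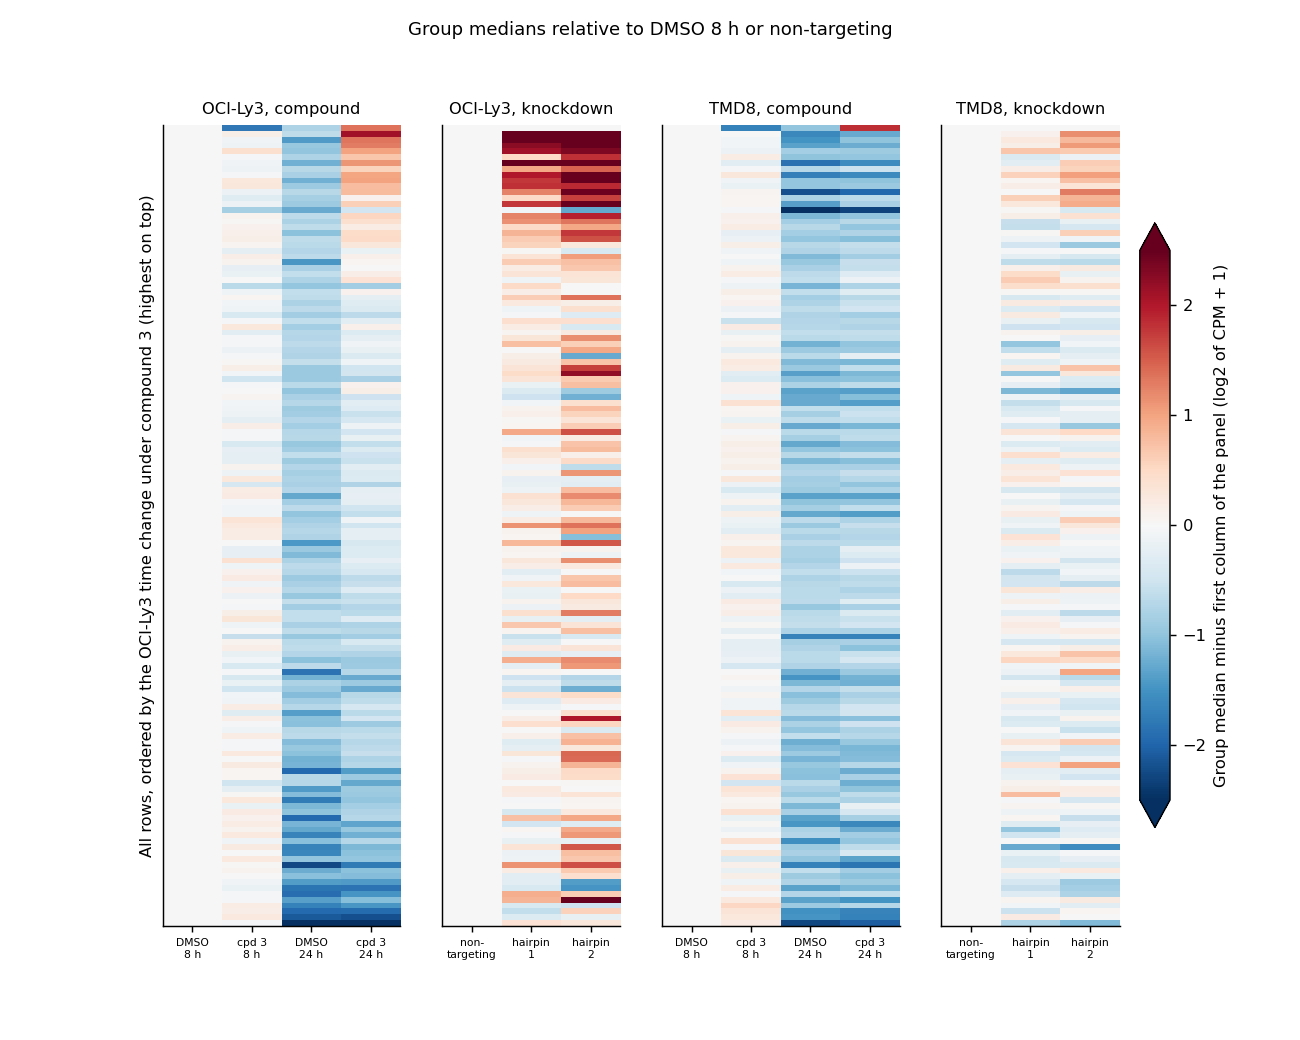
Group medians of the 137 rows (y axis, ordered by the OCI-Ly3 time change under compound) relative to DMSO 8 h or to the non-targeting hairpin, as differences of log2(CPM + 1) from -2.5 (blue) to 2.5 (red); cpd 3 is compound 3. The DMSO 24 h columns are blue by the choice of rows, the compound 24 h column is paler in OCI-Ly3 than in TMD8, and the red of the knockdown panels lies mostly in OCI-Ly3 and toward the top.

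The knockdown was an experiment the choice did not use. Its rows were taken to be in the order of the first experiment: over all 23250 rows, DMSO and non-targeting means had a Spearman correlation of 0.966 in OCI-Ly3 and 0.967 in TMD8, against 0.924 between lines. Of the 137 members, 135 had at least 1 CPM in at least 3 knockdown libraries and were tested among 12303 rows. Both hairpins of a line were compared with the same non-targeting libraries, so their results are given side by side and not as independent. Non-targeting library 1 of OCI-Ly3 stood apart from libraries 2 and 3. It was over 1 log2 unit above their mean for 19 members and below it for 27, against 9 and 11 for library 2 and 5 and 6 for library 3. The same shares over all rows were not counted, but library 1 stood apart beyond the members too. Over rows with enough reads to compare, its counts differed from libraries 2 and 3 with a chi-square per degree of freedom of 91 and 85.3. Between libraries 2 and 3 it was 1.92.

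In OCI-Ly3 more members were higher than lower with either MALT1 hairpin. Hairpin 1 called 33 of the 135 higher and 5 lower, against 7.32% and 7.75% of all rows tested. The median was 0.18 against 0.01, and 21 of the 33 rose at least 2-fold. Hairpin 2 called 76 higher and 19 lower, against 26.7% and 26.1% of all rows. The median was 0.66 against 0.01, and 47 of the 76 rose at least 2-fold. Without non-targeting library 1, hairpin 1 had 36 higher and 7 lower calls and hairpin 2 had 84 and 16. Without non-targeting library 2 or 3, hairpin 1 had 44 or 47 higher and 15 or 14 lower. The direct comparison of the hairpins called 50 members higher and 12 lower with hairpin 2, against 18.6% and 20.2% of all rows.

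Row 19652 rose most with hairpin 2. Its non-targeting libraries in OCI-Ly3 held 0.0427, 0.124 and 0.0887 CPM, which is 1, 3 and 2 reads. Hairpin 1 gave 10.8, 10.9 and 12.5 CPM, and hairpin 2 gave 61.2, 70.7 and 46.8 CPM, so that the 3 groups did not overlap. With so few control reads the ratio of CPM was 133 for hairpin 1, with an exact 95% interval of 61.0 to 364, and 697 for hairpin 2, with an interval of 320.1 to 1901. These intervals cover counting error only. On the scale of the test the rise was 3.52 (SE 0.14, adjusted p = 5.81e-10) and 5.78 (SE 0.14, adjusted p = 2.75e-13).

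Row 2626 rose most with hairpin 1. It stood at 2.90, 21.8 and 20.3 CPM without a MALT1 hairpin, at 230.2, 204 and 212 CPM with hairpin 1 and at 390.0, 403 and 274 CPM with hairpin 2. All libraries of both hairpins lay above all controls. The rise was 4.13 (SE 0.44, adjusted p = 2.42e-05) with hairpin 1 and 4.83 (SE 0.44, adjusted p = 3.36e-07) with hairpin 2. Without control library 1, the lowest of the controls, the rise with hairpin 1 was 3.29. Row 16882 behaved alike, from 0.512, 2.02 and 1.51 CPM to 17.8, 14.6 and 18.3 CPM and to 50.1, 53.7 and 46.9 CPM. Its groups did not overlap, with rises of 2.98 (adjusted p = 7.41e-08) and 4.5 (adjusted p = 5.82e-11). Row 7271 went from 0.171, 0.247 and 0.399 CPM to 5.11, 4.68 and 4.92 CPM and to 29.1, 32.3 and 24.0 CPM, and it rose by 2.22 (adjusted p = 4.74e-08) and 4.53 (adjusted p = 1.19e-12).

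Several falls in OCI-Ly3 moved with non-targeting library 1. Row 4428 had the lowest value with hairpin 2. It measured 480.0, 211 and 208 CPM in the controls, 161, 176 and 153 CPM with hairpin 1, and 84.1, 75.3 and 65.8 CPM with hairpin 2. The groups did not overlap, and the changes were -0.76 (adjusted p = 0.0289) and -1.87 (adjusted p = 3.73e-06). Without control library 1 the hairpin 1 change was -0.36 (adjusted p = 0.00869), and the call was lost without any one hairpin 1 library (adjusted p = 0.0598 to 0.0965). Row 13372, with -1.79 for hairpin 2 (adjusted p = 0.0147), had controls of 36.1, 2.80 and 2.84 CPM and hairpin 2 libraries of 1.64, 1.48 and 1.02 CPM. Row 10894, with -1.63 (adjusted p = 0.0125), had controls of 78.2, 9.92 and 9.80 CPM against 6.41, 5.59 and 5.51 CPM. The groups did not overlap in either row, but without control library 1 the changes were -0.69 (adjusted p = 0.000243) and -0.67 (adjusted p = 0.000601). Row 9068, which fell with time in TMD8 and not in OCI-Ly3 under compound, was at 106, 58.2 and 60.4 CPM in the OCI-Ly3 controls and at 25.5, 24.3 and 23.0 CPM with hairpin 2. Those groups did not overlap, and the change was -1.53 (adjusted p = 1.57e-06).

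In TMD8 the members did not rise as a group, and a smaller share was above 0 than among all rows tested. Hairpin 1 called 2 of the 135 higher and 13 lower, against 2.01% and 1.89% of all rows tested. The median was -0.09 against 0.02, and 42.2% of the members were above 0 against 54.1% of all rows. Hairpin 2 called 11 higher and 12 lower, against 4.87% and 3.67%. The median was -0.15 against 0.02, and 34.1% of the members were above 0 against 54.6% of all rows. OCI-Ly3 non-targeting library 1 adds to the shared estimate of the spread, and without it hairpin 1 had 9 higher and 35 lower calls in TMD8, and hairpin 2 had 24 and 43. The direct comparison called 12 members higher and 5 lower with hairpin 2, against 2.89% and 2.24% of all rows, and 27 and 20 without that library. Leaving out single TMD8 libraries gave from 6 to 9 calls in all for hairpin 1. For hairpin 2 there were 15 and 14 calls without TMD8 non-targeting library 1 or 2. The direct comparison gave 11 calls without hairpin 1 library 1 or 3 or hairpin 2 library 2.

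Row 5018 had the lowest value with both hairpins in TMD8. It stood at 9.29, 8.75 and 10.3 CPM in the controls, at 4.47, 2.95 and 3.29 CPM with hairpin 1 and at 2.53, 2.35 and 2.54 CPM with hairpin 2. Neither hairpin group overlapped the controls, and the falls were -1.20 (adjusted p = 0.000747) and -1.59 (adjusted p = 2.95e-05). In OCI-Ly3 the same row was at 0.427, 1.07 and 0.710 CPM in the controls and rose to 3.05, 5.01 and 4.04 CPM with hairpin 2, a change of 1.53 (adjusted p = 1.52e-06). Row 19652 had the largest rise with hairpin 2 in TMD8, and it stood at 32.8, 34.7 and 25 CPM in the controls. Hairpin 1 gave 35.3, 38.2 and 31.5 CPM, and hairpin 2 gave 74.6, 86.7 and 75.1 CPM. Only hairpin 2 lay apart from the controls, with a rise of 1.33 (SE 0.14, adjusted p = 3.34e-05). Hairpin 1 overlapped them (0.19, adjusted p = 0.525).

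Calls made in both lines did not all point the same way. Hairpin 1 shared none of its 33 higher calls in OCI-Ly3 with the 2 in TMD8, while 3 of the 33 were among the 13 called lower in TMD8 (9.09% and 23.1%). Over all rows tested, the higher calls in OCI-Ly3 shared 43 with the higher and 21 with the lower calls in TMD8 (17.4% and 9.01% of the TMD8 calls). The 3 members were rows 5671, 8374 and 12125, the last named here after its values were seen. Row 8374 lost its TMD8 call (-1.03, adjusted p = 0.0279) without any one TMD8 library of the comparison (adjusted p = 0.0551 to 0.138). Its OCI-Ly3 call (0.89, adjusted p = 0.024) was lost without hairpin 1 library 2 or 3 (adjusted p = 0.0667 and 0.0984), and it was 0.47 without non-targeting library 1. Row 5671 was far more abundant in OCI-Ly3, where it rose from 176, 315 and 329 CPM to 552, 524 and 532 CPM (1.02, adjusted p = 0.0014). In TMD8 it fell from 5.05, 5.35 and 5.94 CPM to 1.53, 2.27 and 2.24 CPM (-1.10, adjusted p = 0.00234), and neither comparison overlapped. Hairpin 2 shared 9 of its 76 higher calls in OCI-Ly3 with the 11 in TMD8 (11.8% and 81.8%), and 6 of the 76 with the 12 called lower there (7.89% and 50%). Of the 19 members called lower in OCI-Ly3, 4 were called lower in TMD8 and 1 was called higher. Over all rows, the higher calls in OCI-Ly3 held 46.7% of the higher and 24.6% of the lower calls in TMD8. The 6 members called higher in OCI-Ly3 and lower in TMD8 were rows 2802, 2942, 5018, 7019, 13368 and 15584, named here after their values were seen.

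The test of the difference between lines called 29 members with a higher effect of hairpin 1 in OCI-Ly3 and 2 with a lower one, against 3.87% and 3.93% of all rows tested. For hairpin 2 it called 70 and 11, against 18.6% and 21.4%. The median differences were 0.31 and 0.77. Without OCI-Ly3 non-targeting library 1 the counts were 45 and 5 for hairpin 1 and 84 and 12 for hairpin 2. The largest differences for hairpin 1 were in row 2626 (3.8, adjusted p = 0.0028), row 19652 (3.33, adjusted p = 2.45e-07) and row 16882 (3.15, adjusted p = 8.08e-06). For hairpin 2 they were in row 19652 (4.45, adjusted p = 1.05e-09), row 2626 (4.03, adjusted p = 0.000128) and row 16882 (3.81, adjusted p = 1.04e-07).

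**Figure D4:**
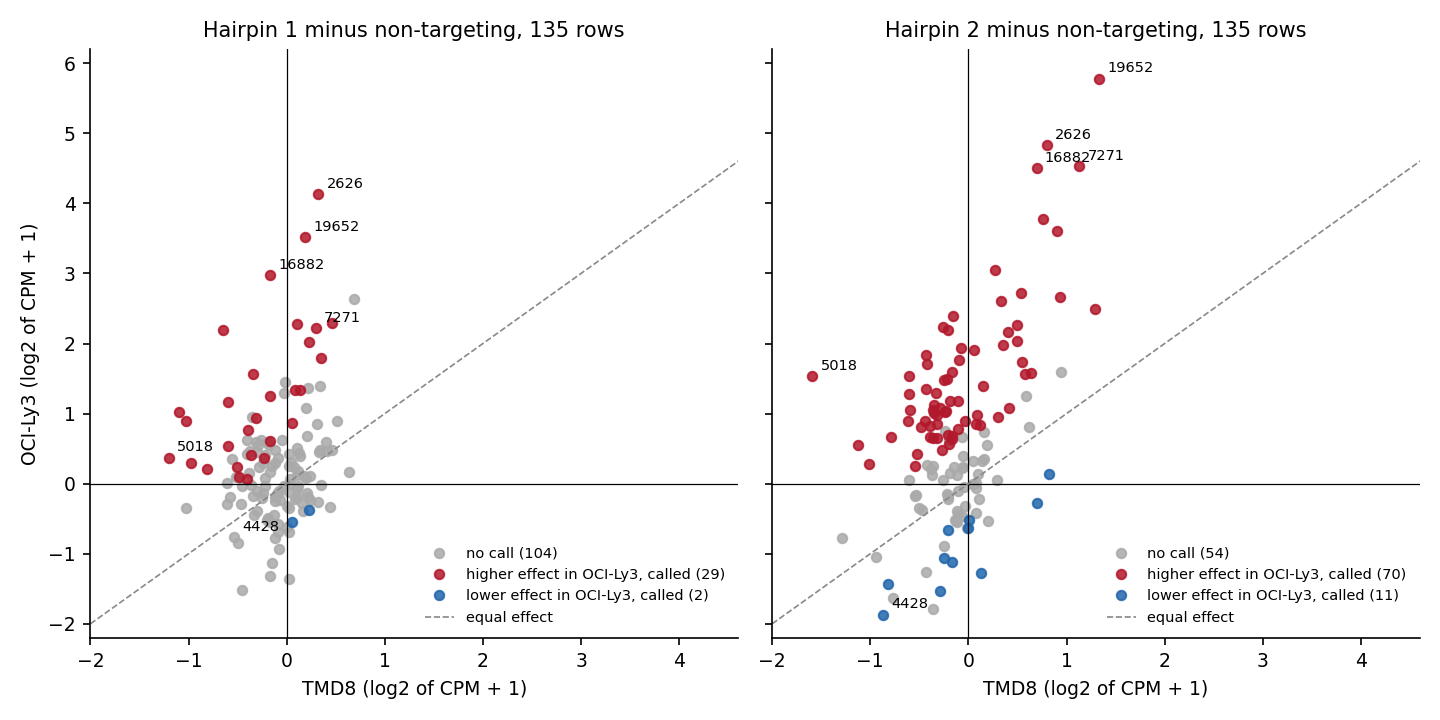
Effect of MALT1 hairpin 1 (left) and hairpin 2 (right) minus the non-targeting hairpin for the 135 rows tested, TMD8 on the x axis and OCI-Ly3 on the y axis, as differences of log2(CPM + 1); both panels use the same controls. Red and blue mark a called difference between lines (29 and 2 rows for hairpin 1, 70 and 11 for hairpin 2), and rows 19652, 2626 and 16882 lie highest above the line of equal effect.

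Time change under compound and hairpin effect could be set side by side, since they share no library. Of the 14 members whose time change differed between lines, 11 were among the 33 called higher with hairpin 1 (78.6% and 33.3%) and 12 among the 76 called higher with hairpin 2 (85.7% and 15.8%). Of all members tested, 24.4% were called higher with hairpin 1 and 56.3% with hairpin 2. The same overlaps over all rows were not counted, so they cannot be read as particular to the members. Split by the sign of the OCI-Ly3 time change under compound, the 28 members above 0 gave 27 rows tested in the knockdown. Their median change was 1.30 with hairpin 1 and 1.98 with hairpin 2 in OCI-Ly3, and 24 of the 27 were above 0 with each hairpin. The other 109 members, 108 of them tested, had medians of 0.07 and 0.37. In TMD8 the same 27 rows had medians of 0.14 and 0.35. The split was made after seeing these data and carries no test. All rows were not split in this way. Every member had fallen with DMSO, and the split also separated the members by compound minus DMSO at 24 h in OCI-Ly3. The median of that fitted difference was 1.23 in the 28 members and 0.346 in the other 109.

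Across the 135 members, the OCI-Ly3 time change under compound had a Spearman correlation of 0.475 with the hairpin 1 effect in OCI-Ly3 and of 0.354 with that of hairpin 2. Over all 12038 rows tested in both experiments the values were 0.112 and -0.15. In TMD8 the corresponding values over the members were 0.101 and -0.01, and over all rows 0.174 and 0.0967. Compound minus DMSO at 24 h in OCI-Ly3 had correlations of 0.425 and 0.493 with the OCI-Ly3 hairpin effects over all 12038 rows. Over the members they were 0.547 and 0.532, where the same DMSO libraries had chosen the rows. Compound and hairpin effects in OCI-Ly3 thus went together over all rows too, and not only in the members. These correlations run across rows, which share libraries and are not independent replicates, so no p is given. The lines' own time changes under compound had a Spearman correlation of 0.169 over the members and 0.293 over all rows.

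The members' levels were ranked less alike between lines than within a line. Between DMSO means of one line and non-targeting means of the other, the Spearman correlation over the 137 members was 0.517 and 0.605, against 0.936 (OCI-Ly3) and 0.883 (TMD8) within a line. With the non-targeting hairpin 24 members were 1 log2 unit or more higher in OCI-Ly3 and 44 in TMD8. Under compound the balance was 22 and 39 at 8 h and 33 and 23 at 24 h. The shares of all rows so far apart were not counted. Over the members, OCI-Ly3 minus TMD8 had a median of -0.24 with the non-targeting hairpin, against 0.05 over rows at the level floor. Under compound that median was -0.26 against 0.10 at 8 h, and 0.07 against 0.03 at 24 h. Row 19652 stood at 0.085 ± 0.041 CPM in the OCI-Ly3 controls, against 30.9 ± 5.12 CPM in TMD8 (SD, n = 3 each). With hairpin 2 it stood at 59.6 ± 12 CPM in OCI-Ly3 and 78.8 ± 6.83 CPM in TMD8.

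Summed over the members, the non-targeting libraries of OCI-Ly3 held 6949 ± 263 CPM, those of hairpin 1 held 8214 ± 123 CPM and those of hairpin 2 held 9480 ± 566 CPM, with no overlap between these groups. In TMD8 it was 7565 ± 333, 7710 ± 178 and 7820 ± 555 CPM in the same order (SD, n = 3 each), within the spread of the libraries. The non-targeting sums of both lines lay between the DMSO sums at 8 h and at 24 h. The sum is led by abundant rows: row 3058 alone held 2223 ± 238 CPM in the OCI-Ly3 controls and was called in none of the tests (adjusted p = 0.150 at the lowest). Row 4588 had 84.2, 226 and 218 CPM in the OCI-Ly3 controls, 427, 414 and 424 CPM with hairpin 1, and 665, 690.1 and 640.4 CPM with hairpin 2. All 3 groups lay apart, and the rises were 1.39 (adjusted p = 0.00141) and 2.04 (adjusted p = 4.03e-06). Without non-targeting library 1 the rise of row 4588 with hairpin 1 was 0.92.

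**Figure D5:**
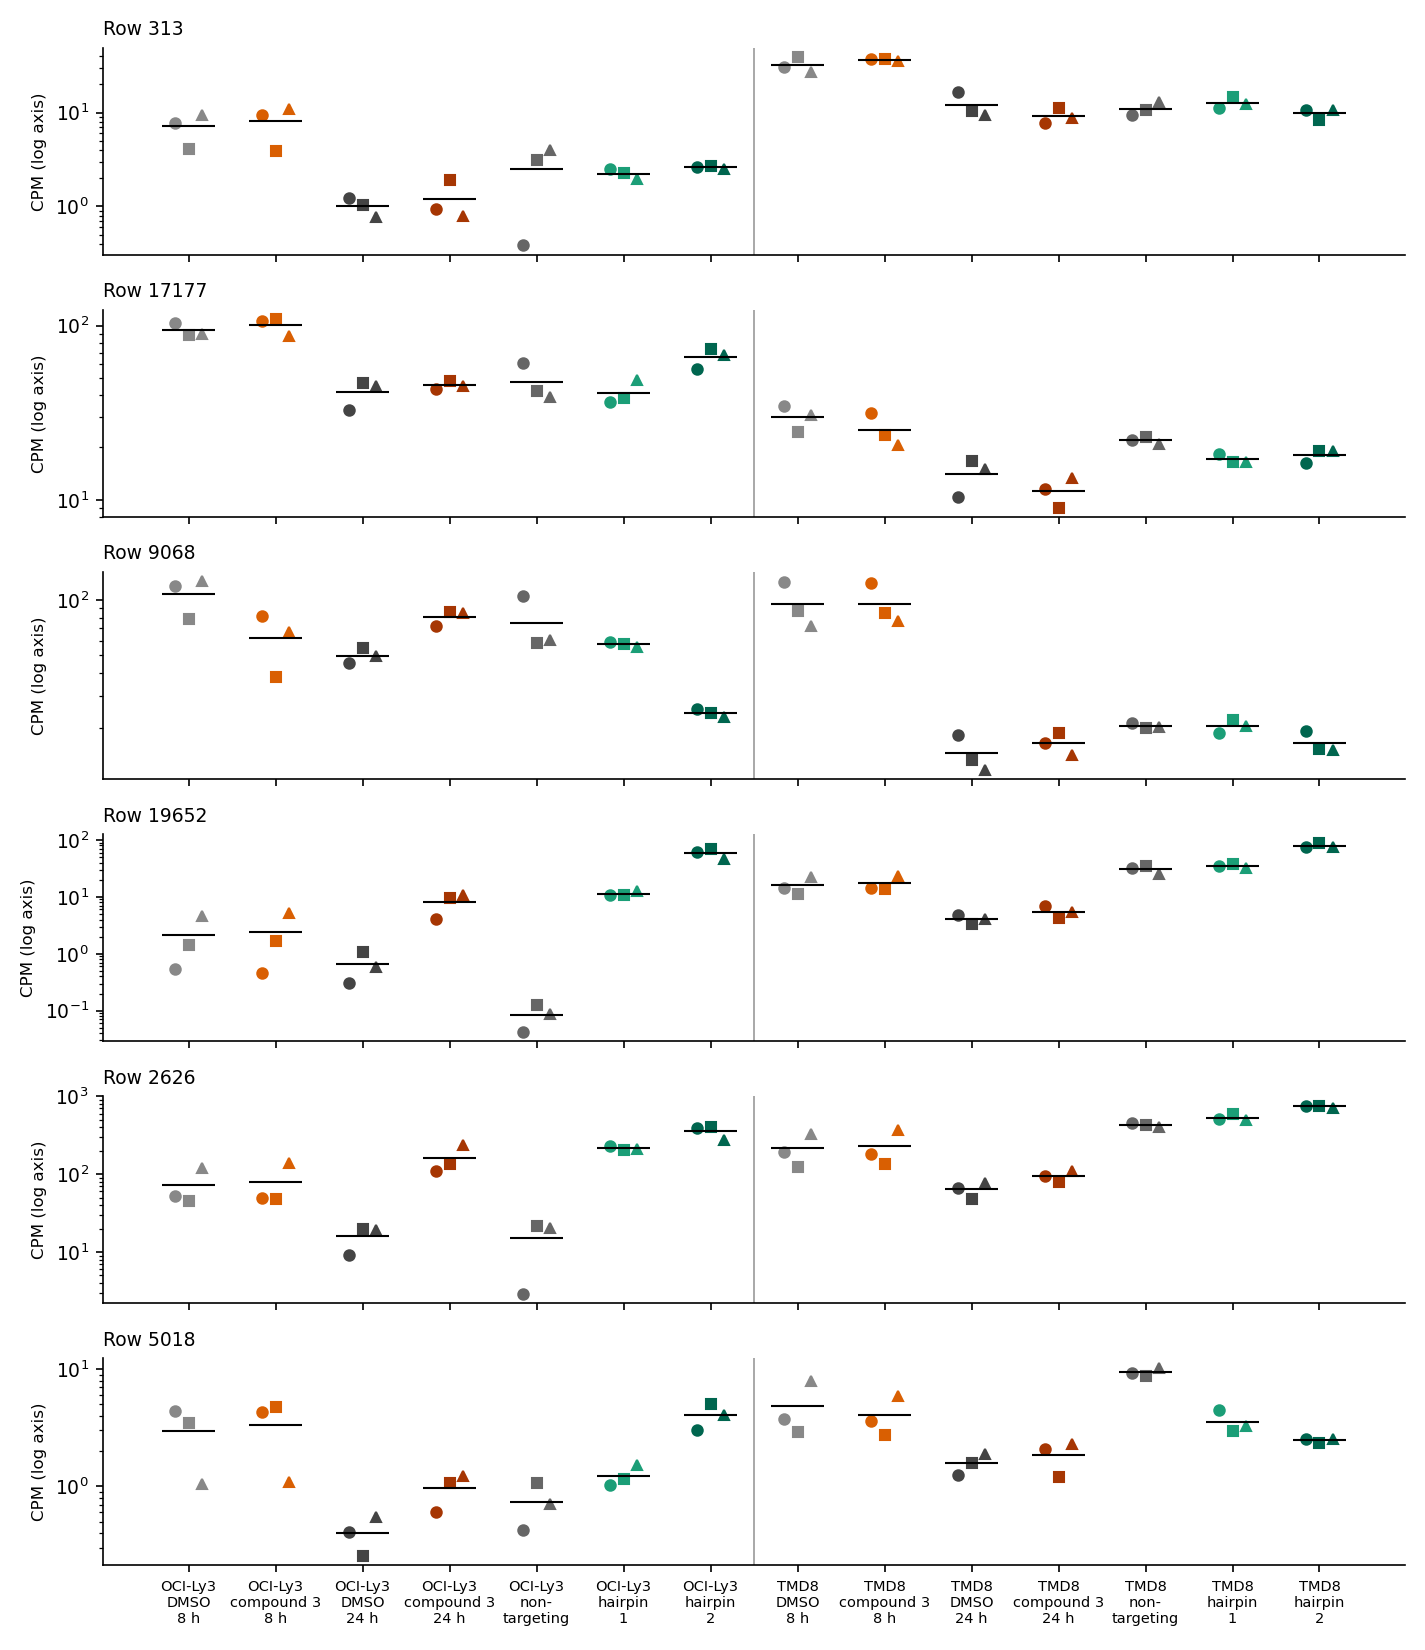
Level in CPM (y axis, log scale) of 6 of the rows in every library of the 14 groups (x axis), with circles, squares and triangles for libraries 1, 2 and 3 and a line for the mean. Rows 313 and 17177 fell with time under DMSO and compound in both lines, rows 19652 and 2626 were high with compound at 24 h and with both hairpins in OCI-Ly3, and row 5018 went up in OCI-Ly3 and down in TMD8 with hairpin 2.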

How the data were processed

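Libraries came from a stranded mRNA kit, per the labels' protocols. The submitters' processing notes name STAR and hg19. How reads were counted, and with which strand setting, is not given in the sources used here. Each deposited table holds CPM that the authors computed for numbered rows, and RefSeq appears in its name. In every library 100% of the values were whole multiples of the value of 1 read, within 1e-06 of a whole number, so the reads behind each value were recovered.

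The members and lists were chosen with earlier results of these data known. Rows with at least 1 CPM in at least 3 libraries of an experiment were tested with limma 3.58.1 (R 4.3.3) on log2(CPM + 1), with a pseudocount of 1, group means, a mean-variance trend and 1 model per experiment. A fold change on this scale understates the change of low rows. P-values were adjusted by Benjamini-Hochberg over all rows tested. Count tests, the quasi-likelihood test of edgeR 4.0.16 and DESeq2 1.42.0, were run as alternatives on those reads: edgeR called 10 members in OCI-Ly3 and 58 in TMD8 for the compound time change, against 9 and 52 by limma. The scripts were checked on simulated data, in which libraries were drawn independently. Deviations shared by same-numbered libraries, or a control library that stands apart, were not part of that check. No 2 libraries of a group held the same counts within sampling noise.

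Rows are named by their rule change, level, compound time change, hairpin effect, line difference or nearness to the limit: the 8 largest falls, the 4 highest levels and the 3 to 6 most extreme of each comparison. Same-numbered DMSO and compound libraries deviated together in OCI-Ly3 at 8 h (correlations of 0.75, 0.715 and 0.808) and 24 h (0.504, 0.378 and 0.599) and in TMD8 at 8 h (0.921, 0.75 and 0.755). There the numbers were taken to pair the libraries; the pairing comes from the data and not from the labels. In TMD8 at 24 h (-0.179, -0.157 and 0.785), between times and between hairpins they were not. Alternatives were other pseudocounts, filters, scalings, tools and fits, and leaving out each library.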

Additional observations from a re-analysis of the deposited data

Results flagged for a closer look

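The results below concern effects that differed between OCI-Ly3 and TMD8 by a test of the difference itself (limma, Benjamini-Hochberg adjusted p under 0.05 over all rows tested). For the change from 8 h to 24 h under compound 3, 14 members differed. Among them were row 19652 (3.04), row 9068 (2.86) and row 7044 (2.48), each as OCI-Ly3 minus TMD8 in log2 units. For hairpin 1, 31 members differed, and the largest differences were in row 2626 (3.8), row 19652 (3.33) and row 16882 (3.15). For hairpin 2, 81 members differed, with the largest differences in row 19652 (4.45), row 2626 (4.03) and row 16882 (3.81). In OCI-Ly3 the hairpin comparisons use non-targeting library 1, which stood apart from libraries 2 and 3 over the members and beyond them. Without it 50 members differed for hairpin 1 and 96 for hairpin 2.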

How the results depend on the processing

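The list of 137 rows became 229, 58 and 21 rows with limits of -0.5, -0.8 and -1, 88 without both DMSO 8 h libraries numbered 1, and 88 to 174 when single libraries were left out. Of the counts of calls recomputed under each setting, 227 stayed within 1.5 times of the reported value and 57, these list sizes included, did not. Of the results of named rows, none changed sign, 277 lost their call and 2404 did not, while 107 of 158 named calls held under every setting run. In the compound time change, the 9 calls in OCI-Ly3 became 21 with DESeq2, 5 in a fit of that line alone and 15 without both TMD8 8 h libraries numbered 1. The 52 in TMD8 became 33 without a filter, 82 with DESeq2 and 28 without both of those libraries. Leaving out single libraries gave 4 to 19, 21 to 62 and, for the 14 line differences, 6 to 20. In the knockdown, the fit of 1 line alone gave 18 in place of 38 calls for hairpin 1 in OCI-Ly3, and 38, 59 and 40 in place of 15, 23 and 17 for hairpin 1, hairpin 2 and hairpin 2 against 1 in TMD8. Single libraries left out gave 26 to 61 and 89 to 100.0 for the hairpins in OCI-Ly3, 6 to 44 and 14 to 67 in TMD8, 56 to 87 and 11 to 47 for hairpin 2 against 1, and 22 to 50 and 76 to 96 for the line differences. For the rows chosen in TMD8, compound minus DMSO in OCI-Ly3 gave 1 call in place of 0 at 8 h with DESeq2. A level floor over the DMSO libraries of the choosing line alone, added after seeing the data, left the counts of 0 and 23, and of 0 in the reverse test, as they were. At 24 h the test gave 45 in place of 23 with DESeq2, 14 in a fit of that line alone, 41 without all 8 h libraries numbered 1, and 6 to 22 without single libraries. With the replicate number as a block, the 24 h count was 65. Where the pairing was not met, the block gave 41, 112 and 29 calls for the time changes in OCI-Ly3, in TMD8 and between them, and 9 in place of 15 for hairpin 1 in TMD8. In those comparisons the libraries share only a number. The cause of these shifts was not tested. The fits that leave libraries out also rest on fewer libraries. A limit to depth: rows near 1 CPM rest on about 20.5 to 40.9 reads a library.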
